A study of Mus musculus with 6 samples.

Results

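The genes described here encode the desmosome, the spot junction that fastens epithelial cells to one another: desmoplakin (Dsp), the desmosomal cadherins Dsg2, Dsg3, Dsc2 and Dsc3, the plakophilins Pkp1, Pkp2 and Pkp3, plakoglobin (Jup) and the tetraspan protein Perp. The set of 10 genes was chosen on measured values of these same arrays, in which Dsp had stood out, so the differences between genotypes below are a description and no test of them is offered. All 10 genes were on the array, with 14 probes between them out of 55681 gene probes. Of the 10, 8 passed the filter on dim probes and entered the comparison, among 22503 genes or unnamed transcripts. Dsg3 and Dsc3 did not pass and are described by their signals.

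RNA came from live CD45- cells sorted from grown tumors, a fraction depleted of leukocytes, which carry CD45, and so enriched in tumor cells. Every tumor was a transplant of late carcinoma cells from MMTV-PyMT mice, in which a mammary tumor virus promoter drives the polyomavirus middle T oncogene, placed orthotopically in syngeneic C57BL/6 hosts. The transplanted cells were RANK+/+ or RANK-/-, where RANK (encoded by Tnfrsf11a) is the receptor for the cytokine RANKL, and no treatment or age was given in the labels. Host stromal cells, which also lack CD45, could be part of the sorted fraction in both groups. Each array carried a RANK+/+ and a RANK-/- RNA in different dyes, and 3 pairs of RNAs were each hybridized to 2 technical arrays, A and B. RANK-/- RNA was in Cy5 in pair 1 and in Cy3 in pairs 2 and 3, on both technical arrays of a pair. The design calls the RNAs biological replicates but does not say whether they came from different donor tumors, so the spread between pairs may be partly technical.

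Desmosomes join the keratin filaments of neighboring cells. Desmogleins and desmocollins cross the gap between the cells, plakoglobin and the plakophilins bind their tails, and desmoplakin ties this plaque to the keratins. Simple epithelia such as the mammary lining use mainly Dsg2, Dsc2 and Pkp2, whereas Dsg3, Dsc3 and Pkp1 are best known from stratified epithelia such as the epidermis, and mammary myoepithelial cells share part of that set.

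Directions below rest on the channel labels as deposited. Tnfrsf11a, the deleted gene, had log2 ratios of RANK-/- over RANK+/+ of 2.03, 1.15 and 1.76 in pairs 1, 2 and 3 (1.65 ± 0.45, SD, n = 3 pairs). Its signal was thus higher, in every pair, in the channel labeled RANK-/-, which goes against the label. Whether this probe lies in the deleted part of the gene was not known here, and a probe outside it would check nothing. Groups are therefore named by their channel label throughout. Between 51.9% and 58.8% of gene probes gave a signal well above background in a channel, and with 3 pairs the number of arrays sets the limit to precision. In bulk RNA, fewer cells of a type and less RNA per cell cannot be told apart.

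Desmoplakin was the member with the lowest ratio in every pair. Its 10-spot probe had log2 levels of 9.54, 9.96 and 11.05 in the RNAs labeled RANK-/- of pairs 1, 2 and 3. In the RNAs labeled RANK+/+ the levels were 11.42, 11.37 and 12.40. The groups did not overlap, and the highest RANK-/- RNA (pair 3) lay below the lowest RANK+/+ RNA (pair 2). Pair 3 was the brightest pair in both channels. Log2 ratios were -1.88, -1.40 and -1.35, a mean of -1.54 ± 0.29 (SD, n = 3), which is 2.92-fold lower in the channel labeled RANK-/-. The SD over pairs was a little under the median over all genes tested, 0.329.

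Replicate spots of this probe allowed a look at the precision within an array. Between 8 and 10 spots per array were usable, and their SD was 0.05 to 0.09. In array 1A the spots ran from -1.97 to -1.75, and in array 3B from -1.50 to -1.21. No spot on any array reached a ratio above -1.21, and the technical arrays of each pair differed by 0.02 at most. These spreads cover the spots of an array only, not the RNAs. Which pair had the lowest ratio depended on the normalization, since with median centring in place of loess the ratios were -1.65, -1.66 and -1.99. Pair 1 is the pair with the other dye arrangement, and with 1 pair so arranged the pair and the dye arrangement cannot be told apart.

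**Figure D1:**
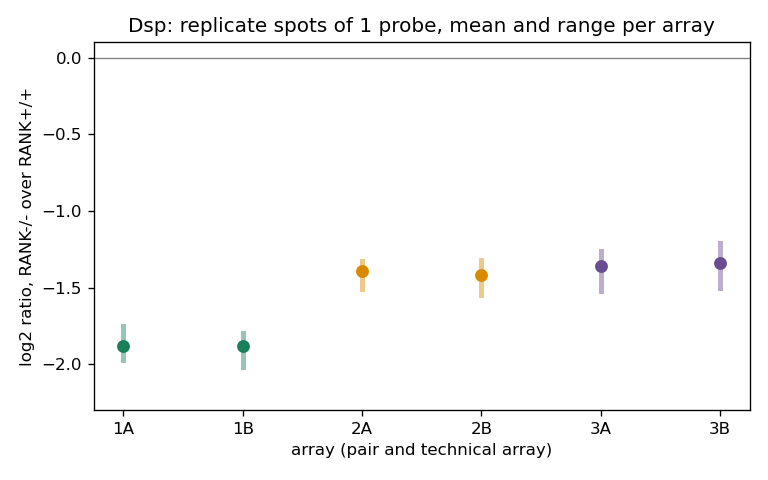
Dsp log2 ratios (vertical axis, RANK-/- over RANK+/+ by channel label) on the 6 arrays (horizontal axis, pair number and technical array letter). Points are means and bars the range over the 8 to 10 usable replicate spots of 1 probe, and all bars lie at or below -1.21, with both arrays of pair 1 lowest.

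A second, much dimmer Dsp probe went the same way with a smaller difference. Its log2 levels were 6.37, 6.37 and 6.67 in the RNAs labeled RANK-/- and 6.99, 6.81 and 7.20 in those labeled RANK+/+, again without overlap. Log2 ratios were -0.63, -0.45 and -0.54 (-0.54 ± 0.09, SD, n = 3). It was well above background in 5 of 6 RANK-/- channels and 6 of 6 RANK+/+ channels. Both probes carry the accession NM_023842. An offset of 50 was added in the background correction, which draws ratios of dim probes toward 0, so the sizes of these differences on the 2 probes are not comparable.

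The sequence upstream of the Dsp start site is shown because Dsp is the gene the comparison turns on, with the Jup sequence beside it as that of a binding partner without a shared direction over the pairs. They are the only 2 members with an entry in the RefSeq promoter table used (mouse build GRCm38.p6). The Dsp stretch is the 250 bases chr13:38151044-38151293 on the plus strand, and the Jup stretch the 201 bases chr11:100397840-100398040 on the minus strand, cut where the annotated gene begins. Both are written 5′ to 3′ and end just before the annotated transcript. Capitals mark matches, on either strand, to the GC box GGGCGG and to the p53 family half-site.
Dsp: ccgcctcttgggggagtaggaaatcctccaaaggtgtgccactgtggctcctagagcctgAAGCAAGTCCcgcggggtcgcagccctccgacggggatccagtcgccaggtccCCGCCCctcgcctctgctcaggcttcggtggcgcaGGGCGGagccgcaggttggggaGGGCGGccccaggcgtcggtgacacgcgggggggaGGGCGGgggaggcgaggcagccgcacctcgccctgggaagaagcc
Jup: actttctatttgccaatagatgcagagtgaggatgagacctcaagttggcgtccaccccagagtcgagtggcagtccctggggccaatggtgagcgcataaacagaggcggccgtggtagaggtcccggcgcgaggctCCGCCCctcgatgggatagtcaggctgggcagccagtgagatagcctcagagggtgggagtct
The Dsp stretch was 72.4% G or C, against a median of 52.4% over the 32851 promoters of the table, and the Jup stretch 60.2%. Dsp held 4 GC boxes and Jup held 1, and 32.7% of all promoters held at least 1 in their 250 upstream bases. The p53 family half-site had 1 match in Dsp and 0 in Jup, against 7.13% of all promoters. The E-box CACCTG that the Snail and ZEB repressors recognize had 0 matches in either stretch (17.2% of all promoters), as did the TATA box TATAAA (12.4%), the AP-1 site TGANTCA (6.75%) and the grainyhead site AACCGGTT (0.116%). In windows of the length of the Jup stretch these shares were 24.8% for the GC box, 5.84% for the half-site, 14.5% for the E-box, 9.18% for the TATA box, 5.59% for the AP-1 site and 0.0944% for the grainyhead site. No match overlapped another in these stretches. The E-box was searched only as the full CACCTG, so shorter or variant forms of it were not counted. A match is a run of letters and not a shown binding site.

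Among the cadherins, Dsg2, the desmoglein of simple epithelia, had no shared direction. Its log2 levels were 9.22, 8.85 and 9.67 in the RNAs labeled RANK-/- and 9.41, 9.01 and 9.02 in those labeled RANK+/+, so the groups overlapped. The ratios were -0.19, -0.16 and 0.65 (0.10 ± 0.48, SD, n = 3). A second Dsg2 probe gave -0.96, 0.07 and 0.59 (-0.10 ± 0.79). Among the RANK-/- RNAs both probes were brightest in pair 3, and they disagreed on the sign of pair 2.

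Dsc2, the desmocollin that pairs with Dsg2, was the member that varied most between pairs. The RNAs labeled RANK-/- read 9.76, 9.02 and 9.47 and those labeled RANK+/+ read 8.66, 9.49 and 9.86 on the log2 level scale. Pair 1 therefore had a higher RANK-/- signal, by a log2 ratio of 1.10, whereas pairs 2 and 3 had lower ones, at -0.47 and -0.39. The mean was 0.08 ± 0.88 (SD, n = 3), and without pair 1 it was -0.43. In pair 1 Dsc2 thus moved opposite to Dsp.

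The cadherins of stratified epithelia were dim. Both Dsg3 probes were well above background in 0 of 6 channels labeled RANK-/- and in 2 of 6 labeled RANK+/+, which were the 2 arrays of pair 1. Their log2 levels in the RANK+/+ RNAs were 6.83, 6.05 and 6.12 for one probe and 6.80, 5.97 and 6.02 for the other, so pair 1 stood above the rest. In the RNAs labeled RANK-/- the levels ran from 5.94 to 6.19. For a comparison, RANK-/- signals below the lowest one called well above background were raised to that lowest one. The mean RANK+/+ signal was then 1.19-fold and 1.12-fold higher on these probes. The RANK+/+ channels of pairs 2 and 3 were not well above background either. These values are therefore no strict bounds and rest on pair 1 alone.

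Dsc3, the partner of Dsg3, had the same pattern on one of its probes. That probe read 6.41, 6.09 and 6.05 in the RNAs labeled RANK+/+ and 6.03, 5.99 and 6.01 in those labeled RANK-/-, and was well above background in the RANK+/+ channel of pair 1 alone (2 of 6 arrays, against 0 of 6). The value computed in the same way was 1.08-fold, again no strict bound. The other Dsc3 probe was not well above background in any channel (0 of 6 in each genotype).

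The plakophilins went apart from each other. Pkp1, the plakophilin of stratified epithelia, had log2 levels of 10.12, 10.13 and 11 in the RNAs labeled RANK-/- and 11.91, 10.62 and 12.01 in those labeled RANK+/+. Each RANK-/- RNA lay below its own partner, but the groups overlapped, because the RANK+/+ RNA of pair 2 was dimmer than the RANK-/- RNA of pair 3. The ratios were -1.79, -0.49 and -1.0 (-1.09 ± 0.65, SD, n = 3), a mean 2.14-fold lower.

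Pkp2 and Pkp3, the plakophilins that simple epithelia also carry, stayed near 0. Pkp2 read 11.46, 11.57 and 11.67 in the RNAs labeled RANK-/- and 11.45, 11.91 and 11.69 in those labeled RANK+/+, with ratios of 0.01, -0.34 and -0.02 (-0.12 ± 0.19, SD, n = 3). Pkp3 read 12.07, 11.66 and 12.12 against 12.01, 11.90 and 12.05, with ratios of 0.06, -0.24 and 0.07 (-0.04 ± 0.18). The groups overlapped for both genes, and pair 2 was the low pair for both. These were the smallest SDs among the 8 members tested.

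Jup, the plakoglobin that adherens junctions also use, had ratios of -0.50, 0.31 and -0.03 (-0.07 ± 0.41, SD, n = 3). Its levels were 7.26, 7.72 and 7.65 in the RNAs labeled RANK-/- and 7.76, 7.41 and 7.67 in those labeled RANK+/+, with overlap. Perp, a tetraspan protein of the desmosome that is a target of p53 and p63, read 12.43, 12.98 and 13.63 against 13.87, 13.45 and 13.63. Its ratios were -1.44, -0.47 and 0.01 (-0.63 ± 0.74), so it was lower in the channel labeled RANK-/- in pairs 1 and 2 and level in pair 3. The RANK-/- RNA of pair 3 was above the RANK+/+ RNA of pair 2, so these groups overlapped as well.

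**Figure D2:**
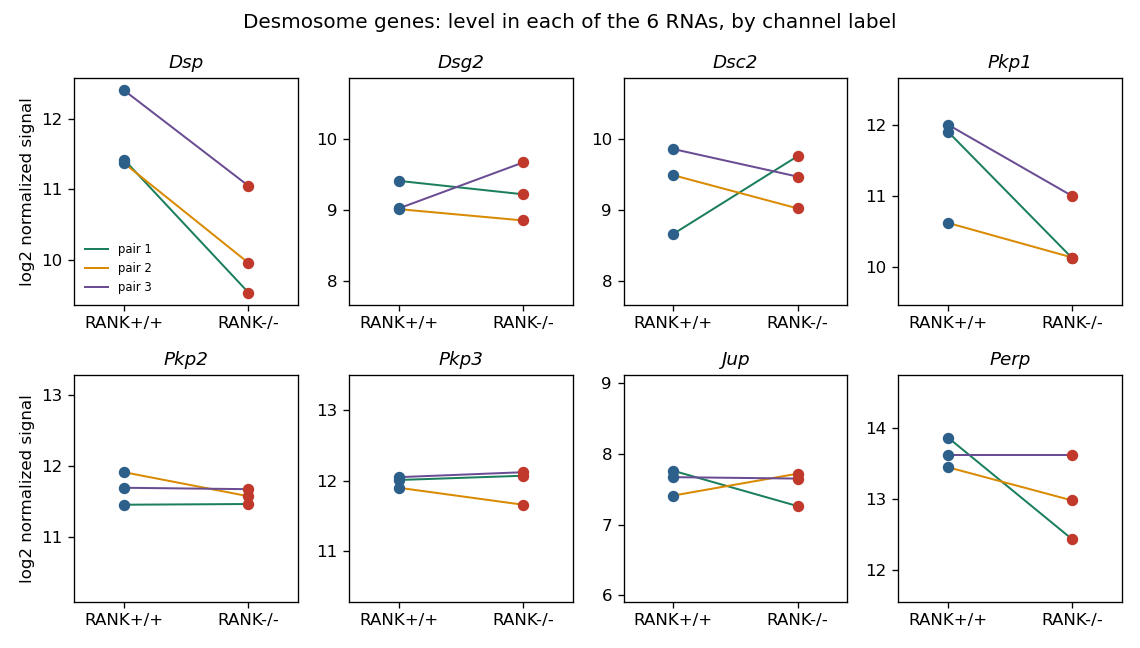
Log2 normalized signal (vertical axes, each spanning the same number of log2 units) of the 8 desmosome genes tested in the RNAs labeled RANK+/+ (blue) and RANK-/- (red), with a line joining the RNAs of a pair. Dsp is the panel in which all red points lie below all blue points, from 9.54 to 11.05 against 11.37 to 12.40, while the lines of Pkp2 and Pkp3 are the flattest and those of Jup cross.

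Taken by count, 2 of the 8 members tested, Dsp and Pkp1, were lower in all 3 pairs in the channel labeled RANK-/-, where 9.65% of all genes tested were. In the other direction the count was 0 of 8, against 9.93% of all genes, and 6 members had mixed signs. Without pair 1 or without pair 3 the count lower in every remaining pair was 4, with Pkp2 and Dsc2 joining in the first case and Dsg2 and Perp in the second. With a pair left out fewer signs have to match, so 9.65% is not the share to set beside these counts. The matching share over all genes was not counted. The RNAs labeled RANK-/- all lay below those labeled RANK+/+ for 1 member, Dsp (3.82% of all genes), and all above for 0 members (3.66% of all genes). Because the members were chosen on this contrast, nothing is read from these counts.

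The median of the 8 member means was -0.10, beside 0 over all genes tested. By pair the member medians were -0.35, -0.40 and -0.03, beside 0.02, -0.01 and 0 for all genes. Pair 3 thus gave a member median near 0, although Dsp and Pkp1 had ratios of -1.35 and -1.0 in it. In limma, fitted over all 22503 genes on the 3 pair ratios, 0% passed an adjusted p of 0.05 (0 genes, smallest adjusted p 0.999), and 647 had an unadjusted p under 0.05, 274 of them lower. The 647 are a smaller share of the genes than the 0.05 that this threshold lets through on average where nothing differs. None of the 8 members passed.

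**Figure D3:**
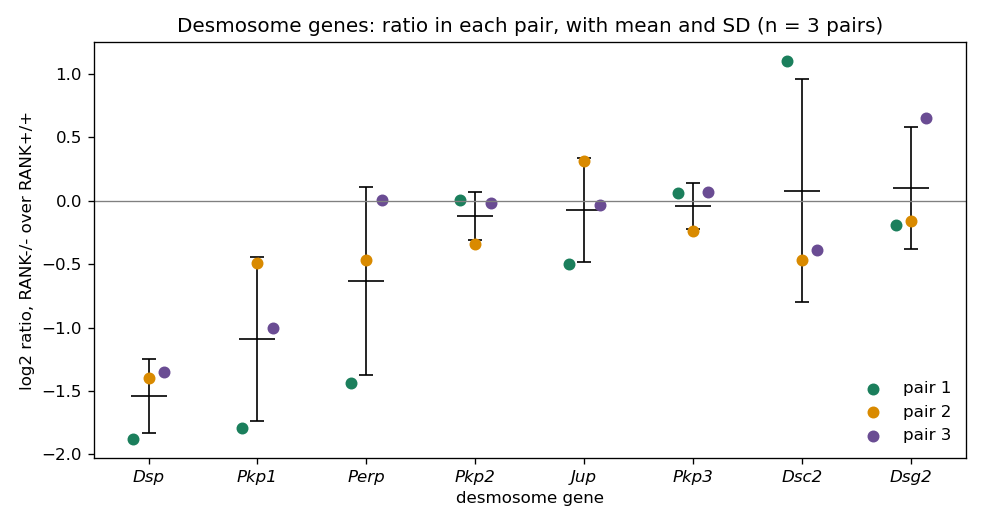
Log2 ratios (vertical axis, RANK-/- over RANK+/+ by channel label) of the 8 desmosome genes tested (horizontal axis, ordered by mean), with a point for each pair, the mean as a dash and the SD over 3 pairs as bars. Dsp and Pkp1 have all 3 points below 0, Perp has 2 below 0 and 1 at 0.01, and the other means lie between -0.12 and 0.10.

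How the members varied together was described over the log2 levels of the 6 RNAs. Pearson r with Dsp was 0.874 for Pkp1 and 0.853 for Perp, and Pkp1 and Perp correlated at 0.83. The other members followed Dsp less closely, with r of 0.473 for Pkp2, 0.453 for Jup, 0.329 for Pkp3, 0.098 for Dsc2 and 0.085 for Dsg2. Over the 28 pairs of members, r ran from -0.59 (Dsc2 and Jup) to 0.87, with a median of 0.30. The 6 points share arrays in pairs and carry the genotype difference, which alone brings together genes lower in the same channel. With each genotype's mean removed, r with Dsp was 0.72 for Pkp1, 0.73 for Perp, 0.50 for Jup, 0.39 for Dsg2 and Pkp3, 0.31 for Pkp2 and 0.30 for Dsc2. Within RANK+/+ the brightest RNA was that of pair 3 for Dsp and Pkp1 and that of pair 1 for Perp.

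**Figure D4:**
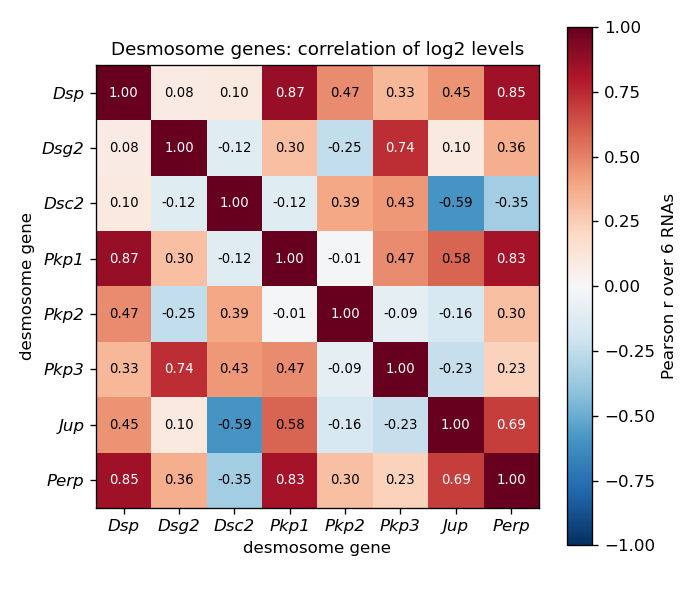
Pearson r between the log2 levels of the 8 desmosome genes tested over 6 RNAs (rows and columns are genes, color and number give r). Dsp, Pkp1 and Perp form a block of r from 0.83 to 0.87, Dsg2 and Pkp3 share 0.74, and Dsc2 and Jup stand at -0.59.

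Likeness to Dsp over the 6 RNAs was ranked among the 14673 genes tested that have a symbol. The 10 most like Dsp were Gabrr2, Lrrk2, Erbb3, Neo1, C5ar2, Ciao2a, Esrp2, Kcns3, Cacul1 and Ramac, with r from 0.959 to 0.987. In the processing used here their differences were small beside that of Dsp: mean log2 ratios ran from -0.40 for Esrp2 to -0.17 for Erbb3. For Kcns3 the size depended on the processing. Its mean was -0.29 here and -1.69 with Agilent processed signals, where that of Dsp was -1.66. Esrp2 encodes an epithelial splicing regulator, and Erbb3 a receptor of the epidermal growth factor receptor family. Gabrr2, the closest at 0.987, had ratios of -0.27, -0.28 and -0.26. The median r with Dsp over all genes tested was 0.02. The 10 were picked as the highest of many r over 6 points, so that median is no yardstick for them.

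Of 9 further desmosome and cornified junction genes, 5 were tested, and 0 passed limma in either direction. Over all genes tested, 9.65% were lower and 9.93% higher in all 3 pairs. These are the shares to set beside the counts of this and the following lists, which were not tested as sets. Among them 2 were lower, pair by pair, in the channel labeled RANK-/- and 0 were higher, with a median of the means of -0.14 that ranged from -0.56 with Agilent processed signals to 0 without pair 1. Periplakin (Ppl), a relative of desmoplakin that joins the plaque in stratified epithelia, had ratios of -0.13, -0.58 and -0.73 (-0.48 ± 0.31, SD, n = 3). Dsg1c, a desmoglein, had -0.16, -0.04 and -0.23 (-0.14 ± 0.09). It was dim, with log2 levels from 6.22 to 6.72. Its signal was well above background in 4 of 6 channels labeled RANK-/- and 6 of 6 labeled RANK+/+. With Agilent processed signals its ratios had mixed signs (-1.15, 0.07 and -0.72). Dsc1, Dsg1a, Dsg1b and Dsg4 did not pass the filter.

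The adherens junction, the other cadherin junction of epithelia, showed no common direction. Of its 10 genes tested, 2 were lower in all pairs (9.65% of all genes), 1 was higher (9.93%) and 0 passed limma. The median of the means was -0.13, with a range over the alternatives from -0.38 (median centring) to -0.01 (without pair 2). E-cadherin (Cdh1) had ratios of 0.27, -0.47 and -0.15 (-0.12 ± 0.37, SD, n = 3). P-cadherin (Cdh3), the cadherin of basal epithelial cells, had -0.80, -0.34 and -1.09 (-0.74 ± 0.38). Nectin1, an adhesion receptor, had 0.00 (just below 0 before rounding), -0.91 and -0.12 (-0.34 ± 0.49). Ctnna1, the alpha-catenin that links cadherins to actin, had 0.25, 0.14 and 0.21 (0.20 ± 0.06), and with median centring in place of loess its mean turned to -0.17. Groups did not overlap for Cdh3 and Nectin1, with the RNAs labeled RANK-/- below (3.82% of all genes). The same held for Ctnna1, with the RNAs labeled RANK-/- above (3.66%).

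Keratins form the filaments to which desmoplakin binds. Of 8 stratified epithelial keratins tested, 3 were lower in every pair in the channel labeled RANK-/- (9.65% of all genes). In the other direction 0 were higher (9.93%), and 0 passed limma. The median of the means was -0.94, with pair medians of -1.54, -0.87 and -0.42. Krt16, a keratin of activated epidermis, had ratios of -2.42, -2.32 and -0.39 (-1.71 ± 1.14, SD, n = 3). Krt15, a keratin of basal cells, had -1.05, -0.68 and -1.23 (-0.99 ± 0.28), and Krt10, of differentiating epidermis, -0.36, -0.81 and -1.50 (-0.89 ± 0.57). The 4 simple epithelial keratins gave 0 genes with one sign in all pairs and a median of 0.12, which turned to -0.26 with median centring in place of loess. Their pair medians were -0.65, -0.95 and 0.97, so they were lower in pairs 1 and 2 and higher in pair 3, and without pair 3 the median was -0.46. The difference between the keratin types was not tested. Krt19 read -1.22, -3.95 and 0.03 (-1.71 ± 2.04).

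Hemidesmosomes anchor keratins to the basement membrane rather than to a neighboring cell. Of their 9 genes tested, 3 were lower in all pairs (9.65% of all genes), 1 was higher (9.93%) and 0 passed limma. The median of the means was -0.41, which turned to 0.22 without pair 1. Col17a1, the transmembrane collagen of the hemidesmosome, had ratios of -2.01, -2.13 and -0.21 (-1.45 ± 1.07, SD, n = 3). Chains of laminin-332, the ligand of hemidesmosomes, were lower as well, Lamb3 at -1.90, -0.29 and -0.51 (-0.90 ± 0.87) and Lama3 at -0.83, -0.87 and -0.01 (-0.57 ± 0.49). The tetraspanin Cd151 had 0.27, 0.01 and 0.70 (0.33 ± 0.35).

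Transcription factors and splicing regulators of epithelia were mostly without a common sign. Of 13 tested, 2 were lower in all pairs (9.65% of all genes), 0 were higher (9.93%) and 0 passed limma. The median of the means was 0.07, or -0.17 with median centring. Grhl3, a grainyhead factor of epidermal barrier genes, had ratios of -0.99, -0.28 and -0.04 (-0.44 ± 0.49, SD, n = 3). Esrp2, named above for its likeness to Dsp, had -0.63, -0.41 and -0.17 (-0.40 ± 0.23). Trp63, which encodes p63, the master factor of stratified epithelia, was chosen for mention after its values were seen because its 2 probes disagreed. The brighter probe, which stood for the gene, gave 0.28, -0.02 and 0.17, whereas the other gave -1.45, -1.07 and -0.50, and both were well above background in every channel.

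Factors of the epithelial to mesenchymal transition, several of which repress junction genes, split. Of 6 tested, 2 were higher in every pair in the channel labeled RANK-/- (9.93% of all genes), 1 was lower (9.65%) and 0 passed limma. The median of the means was 0.37. Zeb2 had ratios of 1.00, 0.67 and 1.07 (0.91 ± 0.21, SD, n = 3) and Zeb1 1.01, 0.30 and 0.86 (0.72 ± 0.38). For both genes all RNAs labeled RANK-/- lay above those labeled RANK+/+ (3.66% of all genes). A second, dim Zeb2 probe gave 0.22, 0.03 and 0.10. Over the 6 RNAs Zeb2 had an r of -0.923 with Dsp, and Zeb1 -0.765. Both values carry the genotype difference, which alone sets genes of opposite direction against each other, and r with each genotype's mean removed was not computed. A link of Zeb1 or Zeb2 to the Dsp level was not tested. Snai2, which basal mammary cells express, went the other way at -0.36, -0.48 and -0.58 (-0.47 ± 0.11). Its groups did not overlap either, with all RNAs labeled RANK-/- below those labeled RANK+/+ (3.82% of all genes).

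Markers of the cell types that the sorted fraction could hold were read beside the desmosome genes. Epithelial identity was present: Epcam, Cdh1, Krt8 and Krt18 were well above background in all 6 channels of each genotype. Luminal markers, 10 of 10 tested, had a median of the means of 0.33 (-0.03 with median centring, -0.27 without pair 3) with pair medians of 0.54, -0.69 and 1.25, 1 gene lower and 0 higher in all pairs. The gene lower in all pairs was Foxa1, a luminal transcription factor, at -0.97, -2.10 and -0.66 (-1.24 ± 0.76, SD, n = 3). Basal myoepithelial markers, 10 of 10 tested, had a median of -0.09, with 0 lower and 1 higher in all pairs, Oxtr at 1.84, 0.74 and 0.08. The median was -0.32 with the probes of a gene averaged, -0.30 with median centring and 0.08 without pair 2. The basal keratins Krt17, Krt5 and Krt14, named after their values were seen, had mixed signs and the lowest means of the list: -1.66, 0.05 and -2.10 for Krt17 (mean -1.23), -1.41, -2.13 and 0.33 for Krt5 (-1.07), and -1.81, 0.12 and -0.44 for Krt14 (-0.71). The log2 of the summed signal of the basal list was 15.00 to 15.26 in the RNAs labeled RANK-/- and 15.41 to 15.80 in those labeled RANK+/+. Signals were summed before taking log2, so the brightest genes of a list dominate such a sum.

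Hair follicle and epidermis markers were tested because skin cells carry abundant desmosomes. Of 12 genes, 8 were tested, and 5 were lower in all pairs in the channel labeled RANK-/- (9.65% of all genes). Krt10, 1 of these 5, is also counted among the stratified keratins. In the other direction 0 were higher (9.93% of all genes), 0 passed limma, and the median of the means was -0.96. The median was -0.55 without pair 1 or with no filter, and -0.40 when each of the 6 arrays had to read a gene well above background in both dyes. Tchh, Krt27 and Krt28, among the 5 lower genes, were well above background in 3, 3 and 2 of 6 channels labeled RANK-/- and in 6, 6 and 4 of 6 labeled RANK+/+, so they passed the filter through the group in which they were brighter. The log2 of the summed signal of the list was 10.32 to 10.41 in the RNAs labeled RANK-/-. It was 13.55, 11 and 11.17 in the RNAs labeled RANK+/+ of pairs 1, 2 and 3. The RANK+/+ RNA of pair 1 thus held the highest signal, and Dsg3 and Dsc3 were measurable in that same RNA. Dsp, Pkp1 and Perp had their lowest ratios in pair 1 with loess, whereas with median centring Dsp and Pkp1 had theirs in pair 3 (-1.99 and -1.63, against -1.65 and -1.55 in pair 1). Trichohyalin (Tchh), an inner root sheath protein, had ratios of -6.01, -1.85 and -1.12, and the inner root sheath keratins Krt28 and Krt27 had -4.46, -0.83 and -0.03 and -2.33, -1.12 and -1.75. With part of the RANK-/- channels near background, the sizes of these ratios depend on the background correction: the means of Tchh, Krt28 and Krt27 were -2.99, -1.77 and -1.73 here and -4.86, -2.89 and -3.55 with Agilent processed signals. Ivl was not well above background in any channel, and Krt1 and Krt25 in 2 and 0 of 6 channels labeled RANK-/- and 0 and 2 labeled RANK+/+. The part of such cells in the Dsp and Pkp1 differences was not tested. Without pair 1, the Dsp and Pkp1 means were -1.38 and -0.75.

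All 10 fibroblast markers tested had a mean above 0, from 0.10 to 1.28, although most had mixed signs over the pairs. In the channel labeled RANK-/-, 3 were higher in all pairs (9.93% of all genes) and 0 were lower (9.65%). The other 7 had mixed signs, and 0 passed limma. The median of the means was 0.93, with pair medians of 0.13, 0.57 and 1.88. The collagen genes Col1a2 and Col1a1 had ratios of 0.61, 0.85 and 2.38 (1.28 ± 0.96, SD, n = 3) and 0.68, 0.30 and 1.94 (0.97 ± 0.86), and Pdgfra 0.16, 0.20 and 1.26. The log2 of the summed signal was 17.17 to 17.88 in the RNAs labeled RANK-/- and 15.75 to 17.21 in those labeled RANK+/+. Without pair 3 the median was 0.40. The part of stromal cells in the desmosome values was not tested. Endothelial markers, 9 tested, had a median of 0.12 (-0.05 with median centring) and 0 genes with one sign in all pairs. Tek, the gene of largest mean, read -0.02, 0.23 and 0.42.

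Leukocyte markers, which the sort should deplete, were tested for 7 of 11 genes, with 1 lower and 1 higher in all pairs and a median of -0.03. Ptprc, which encodes CD45, was dim, well above background in 5 of 6 channels labeled RANK-/- and 4 of 6 labeled RANK+/+, with ratios of -0.93, 0.10 and 0.14. Ms4a1, a B cell gene, was not well above background in any channel. S100a9, a neutrophil protein also made by stressed keratinocytes, had ratios of -4.12, -0.04 and -0.25, with 4 of 6 channels labeled RANK-/- well above background, and the T cell gene Cd3e 0.02, 0.20 and 0.01, with a mean of 0.08 that turned to -0.11 with median centring. The log2 of the summed signal, which the brightest genes dominate, was 13.04 to 13.41 in the RNAs labeled RANK-/-. It was 14.96, 13.32 and 12.99 in those labeled RANK+/+ of pairs 1, 2 and 3. The high sum in pair 1 was mostly S100a8, which read 14.29, 11.38 and 10.39 in these RANK+/+ RNAs. Csf1r (10.68, 9.59 and 9.15) was also brightest in pair 1, whereas Itgam (12.37, 12.51 and 12.39) was not. The part of other cell types in the desmosome levels of the RANK+/+ RNA of pair 1 was not tested.

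**Figure D5:**
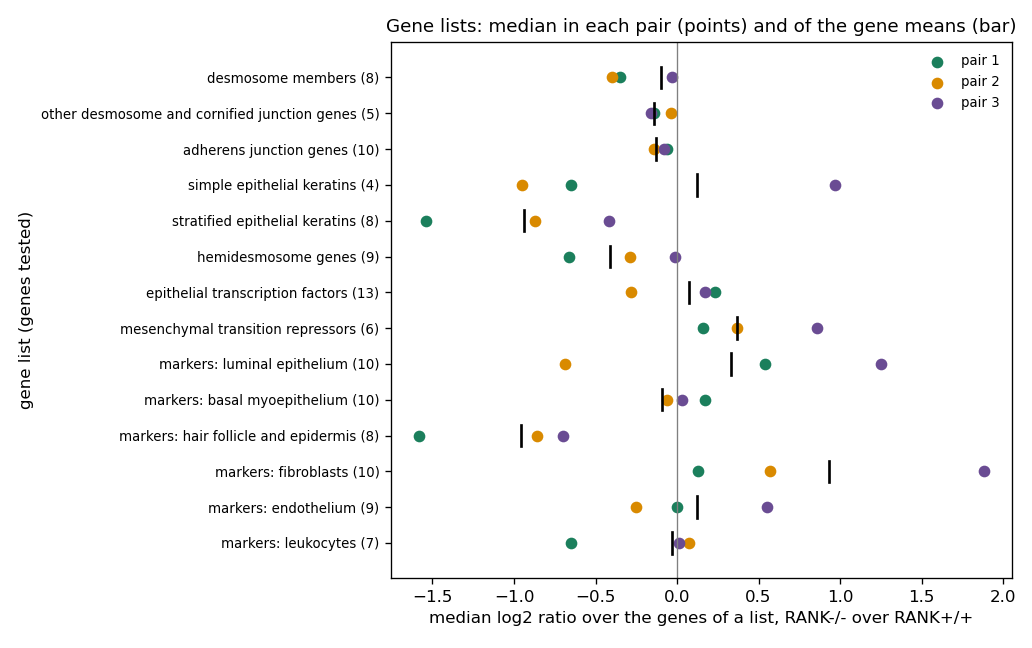
Median log2 ratio (horizontal axis, RANK-/- over RANK+/+ by channel label) over the genes of each list (vertical axis, number of genes tested in parentheses), with a point per pair and a bar for the median of the gene means. The desmosome bar lies at -0.10, those of stratified keratins and hair follicle markers at -0.94 and -0.96 with pair 1 lowest, and that of fibroblast markers at 0.93 with pair 3 highest.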

How the data were processed

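The authors labeled each RNA pair, hybridized it to SurePrint G3 Mouse arrays and read them with Feature Extraction 10.7.3.1. Their deposited scanner tables give median spot and background intensity per channel, not normalized, and processed intensity values, background-subtracted and dye-normalized per the file headers. The deposited series table holds normalized log2 ratios, used as an alternative. Its direction was not stated, and set against the scanner ratios it ran as RANK-/- over RANK+/+.

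Median intensities of all spots were corrected with normexp (offset 50), control spots (3671) and outlier spots (212 to 260 per array) were removed, and ratios were normalized by loess within and Aquantile between arrays, with limma 3.58.1 in R 4.3.3. Spots of a probe, then arrays A and B, were averaged, so n = 3 pairs. The filter asked, for either genotype, for 2 or more pairs with both technical arrays well above background, and kept 54.3% of gene probes. The brightest probe stood for a gene. Symbols came from RefSeq by accession (28026 of 55681 gene probes). Levels are log2 normalized channel signals. The test was limma's (intercept-only lmFit with eBayes, two-sided, Benjamini-Hochberg, threshold 0.05), checked on simulated data. The study's rank product was not run, nor was any other test on gene sets.

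Members, lists and alternatives were chosen with earlier results of these data known. Named were Tnfrsf11a, every member and probe, and the 10 genes with a symbol most like Dsp. In each other list up to 4 genes were named, with the largest mean among those of one sign in all pairs (else 1). A few others (Cdh1, Epcam, Krt8, Krt18, Ptprc, Ms4a1, S100a8, Csf1r, Itgam, Trp63, Krt5, Krt14, Krt17 and marker or list genes that did not pass) were added afterwards for description. The array grid is built on mm9, so no array coordinates are given. The methods describe dye swaps, but the labels give arrays A and B of a pair the same arrangement. 1 marker gene is not reported here.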

Additional observations from a re-analysis of the deposited data

How the results depend on the processing

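Dsp and Pkp1 were lower in all 3 pairs, in the channel labeled RANK-/-, under each of 11 alternatives of background correction, normalization, filter, probe choice and technical array. The number of members lower in all pairs moved from 2 to 5 with the series table of the authors, where Perp, Pkp2 and Pkp3 joined. With no filter it moved to 4 of 10 members tested, where Dsg3 and Dsc3 joined. Leaving out 1 pair gave 3 to 4, with fewer signs that have to match. The share of all genes was not counted under these settings, so nothing is read from the counts. The median of the member means moved from -0.10 to -0.31 with median centring, which also shifted the median of all genes by -0.14, and lay between -0.21 and -0.13 with a pair left out. Perp changed side in pair 3 (0.01) to a negative value under 6 of the 11. The Dsp mean ranged from -1.77 (median centring) to -1.04 with its 2 probes averaged and -0.54 on the dim probe. Means near 0 changed sign under 2 settings for Dsc2, 3 for Dsg2, 1 for Jup and 1 for Pkp3. The cause was not tested.

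Limma passed 0 genes under every alternative but one. With the 6 arrays kept and the pair as a random block (correlation within pairs 0.962), 13 genes passed, 6 lower and 7 higher, Dsp among the lower ones (adjusted p 0.0164). That fit treats arrays as the units, and Dsp had been chosen on this contrast. With no replicate block, the channels entered as 3 against 3 samples, 0 passed and 830 had an unadjusted p under 0.05. That too is a smaller share of the genes than 0.05. RNAs hybridized together did not deviate together across genes (r -0.0335, -0.218 and -0.0412 in pairs 1, 2 and 3), so the pairing is that of the arrays. Dim probes limit Dsg3, Dsc3 and the second Dsp probe.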
